A study of Mus musculus with 10 samples.

Results

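The actin cytoskeleton and motility genes examined here are 47 genes for actin itself and for the proteins that store, nucleate, elongate, cap, sever, bundle, pull on and anchor its filaments. They were chosen by gene symbol, and all 47 were found among the 13091 genes of each of the 4 deposited comparison tables. Gene expression was measured by RNA sequencing in mouse neutrophils differentiated from bone marrow progenitors that had been immortalized with HoxB8, a transcription factor that holds them in a dividing state until it is switched off. The strain is given as 129-SVEV, and the groups were 2 *Vim*+/+ libraries and 3 *Vim*-/- libraries without stimulation, and 2 *Vim*+/+ and 3 *Vim*-/- libraries after 1 h with 25 ng/mL lipopolysaccharide (LPS), a component of the bacterial outer membrane. The progenitors were isolated as clonal lines, and neither the labels nor the methods say which line a library came from, so that differences between lines and between genotypes cannot be told apart. The labels call the cells without vimentin a knockdown where the study describes knockout mice. The deposited tables hold 1 value a gene for each comparison and no value for a single library, so neither the spread over libraries nor the depth of a library can be shown, and precision rests on the standard errors of the authors' model.

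Actin polymerizes from monomers into polar filaments, and a neutrophil moves by growing a branched filament network at its front while myosin II contracts the network at its rear. Monomer-binding proteins hold the pool ready, the Arp2/3 complex starts branches where WASP or WAVE proteins switch it on, formins and Ena/VASP proteins lengthen filaments, and capping and severing proteins end and recycle them. Crosslinkers give the network stiffness, and talin, vinculin, zyxin and the ERM proteins couple it to integrins and to the plasma membrane. Vimentin, the protein missing from the *Vim*-/- cells, forms intermediate filaments, a separate filament system that is linked to actin at many of these sites.

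The labels were first checked on the targeted gene. *Vim* had a baseMean, the authors' mean of normalized read counts over all libraries, of 39926, and was lower in *Vim*-/- than in *Vim*+/+ neutrophils, at -13.56 on the log2 scale (standard error 0.33) unstimulated and -12.44 (standard error 0.24) after LPS. All 14 genes on the list of mature neutrophil markers were in the tables, with the highest baseMean for *S100a9* (1290830), and 7 were higher and 0 lower in unstimulated *Vim*-/- cells, beside 12.6% and 6.15% of all genes, among them *Cd177* and *Camp* (0.95 each), *Mmp8* (0.90), *Itgam* (0.59), *Cxcr2* (0.54) and *Ngp* (0.51). Markers of less mature cells were lower where they passed, beside 6.15% of all genes. They were *Ctsg* at -2.55 and *Prtn3* at -1.14 of 6 early granulocyte genes (*Mpo* had the highest baseMean, 121760). Of 4 progenitor genes they were *Cd34* at -1.01 and *Gata2* at -0.61. *Mpo*, *Elane*, *Ms4a3* and *Sox4* were negative without passing. *Fcnb* stood at 0.00 and *Kit* at 0.21, and at 0.15 and 0.18 after LPS, without passing. Of 6 proliferation genes 4 were higher, beside the same 12.6%, with *Mki67* at 1.20, *Top2a* at 0.99, *Ccnb1* at 0.52 and *Mcm5* at 0.44. Against genes of similar transcript length, as described further on, *Itgam* (0.36, adjusted p = 0.0551) and *Mcm5* (0.35, adjusted p = 0.124) no longer passed. *S100a8* (0.48), *S100a9* (0.53) and *Ly6g* (0.58) then passed as higher. Other lineages were represented too, and the genes of theirs that passed unstimulated were lower: *Adgre1* (-0.40) and *Csf1r* (-0.93) of monocytes and macrophages, *Siglecf* (-0.79) of eosinophils, *Cpa3* (-0.96, baseMean 26296) of mast cells and basophils, and *Itga2b* (-1.12) of megakaryocytes. They were 2 of 4, 1 of 5, 1 of 4 and 1 of 3 genes found of these lists, where 6.15% of all genes were lower. *Pf4*, also of megakaryocytes, stood at 0.36 (standard error 1.20, baseMean 38.1) and at 1.27 after LPS (standard error 1.46), without passing. The eosinophil genes *Prg2* (baseMean 268319), *Epx* and *Il5ra* stood at 0.29, 0.67 and 2.77 (adjusted p of 0.848, 0.405 and 0.0736) and *Ccr3* at -1.70 (adjusted p = 0.0986), without passing, and the median of the 5 genes of that list was 0.29. After LPS *Mrc1* of macrophages (4.15, standard error 1.46, baseMean 90.9) and *Il5ra* of eosinophils (3.80, standard error 1.05, baseMean 131) were higher in *Vim*-/- cells, while *Csf1r* (-1.19), *Adgre1* (-0.58), *Siglecf* (-0.65), *Cpa3* (-0.72) and *Itga2b* (-0.93) were lower again. *Cd79a* of B cells was lower too (-4.19, standard error 1.04, baseMean 83.8), as were *Ctsg* (-2.06), *Prtn3* (-0.79) and *Cd34* (-0.67). After LPS 3 of 14 mature neutrophil and 5 of 6 proliferation genes were higher, beside 6.68% of all genes. In these bulk libraries fewer cells of a type and less RNA per cell cannot be told apart, and the part of these shifts in the results on actin genes was not tested.

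Actin and motility genes were among the most abundant transcripts of these cells. Their baseMean ran from 314 for *Evl* to 738885 for *Actb*, with a median of 39735 against 907 over all genes, and together they made up 5.72% of the summed baseMean. Divided by the length of the principal transcript, so that genes can be compared, the level per kb was highest for *Actb* (384836), which encodes beta-actin, and for *Tmsb4x* (257674), which encodes the monomer-sequestering peptide thymosin beta 4. Profilin, which feeds monomers to growing filaments, followed with *Pfn1* at 118919 per kb, and the essential light chain of myosin II with *Myl6* at 68164. The places of *Pfn1* and *Myl6* rest on principal transcripts of 861 and 665 bases. With their longest transcripts, of 1997 and 3040 bases, both levels per kb would be lower. The second cytoplasmic actin, *Actg1*, had 56590 per kb, close to the Arp2/3 subunit *Arpc2* (61330) and to the bundling protein L-plastin (*Lcp1*, 54397). At the other end stood the adaptor vinculin (*Vcl*, 1703 per kb), the tropomyosin *Tpm4* (461) and the Ena/VASP protein *Evl* (144). No error belongs to these levels, since the tables give only the mean over all libraries.

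**Figure D1:**
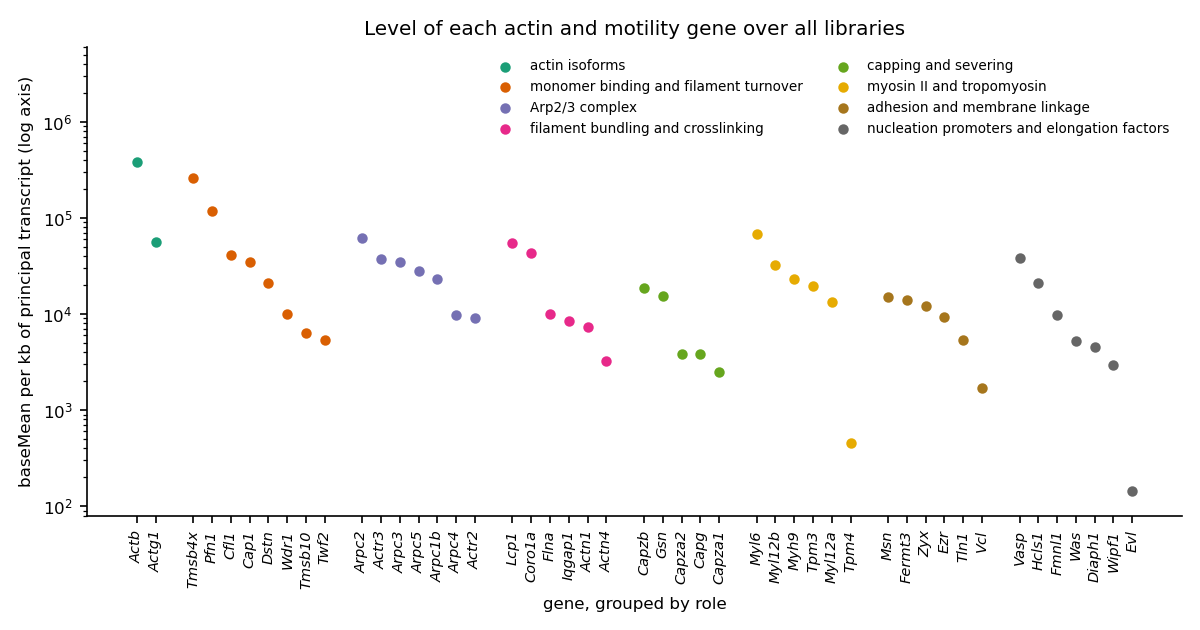
Level of each of the 47 genes, as the authors' baseMean over all 10 libraries divided by the length of the principal transcript in kb, on a log axis, with genes grouped and coloured by role and 1 point a gene. *Actb* at 384836 and *Tmsb4x* at 257674 stand at the top, and *Tpm4* at 461 and *Evl* at 144 at the bottom.

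The first comparison asked how the loss of vimentin goes with the actin genes of unstimulated neutrophils. Of the 47 genes, 7 were higher and 8 lower in *Vim*-/- than in *Vim*+/+ cells at an adjusted p under 0.05 in the authors' DESeq2 test. The crosslinkers *Iqgap1*, *Flna* and *Actn1*, the integrin-linked proteins *Tln1* and *Vcl*, the ERM protein *Msn* and the WASP-interacting protein *Wipf1* were higher, while the myosin light chains *Myl6*, *Myl12a* and *Myl12b*, the tropomyosin *Tpm3*, the monomer binders *Pfn1* and *Tmsb4x*, the severing protein *Gsn* and the cortactin homologue *Hcls1* were lower. Over all genes tested 12.6% were higher and 6.15% lower, and among genes with a baseMean of at least 1000, to which 45 of the 47 belong, 16.6% and 9.63%. The members' shares, 7 and 8 of 47, thus lay near the background of abundant genes on the higher side and above it on the lower side. The members' median standard error was 0.14 against 0.27 over all genes, and their median longest transcript was 2565 bases against 3199.5. The part of precision and length in these shares was not tested. None passed an absolute log2 fold change over 1 as well, against 7.14% of all genes. Without adjustment 12 members were higher and 9 lower at p under 0.05. The median log2 fold change of the members was -0.02, against 0.08 over all genes and 0.06 over those with a baseMean of at least 1000, with 21 positive and 26 negative. One setting ended nearly all calls: with the Wald statistics (fold change divided by standard error) centred and divided by their robust spread, which was 1.83 in place of 1, 1 member remained higher (*Iqgap1*, background 0.894%) and 0 lower (background 0.542%). Length centring, taken up further on, ended some of the same calls.

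**Figure D2:**
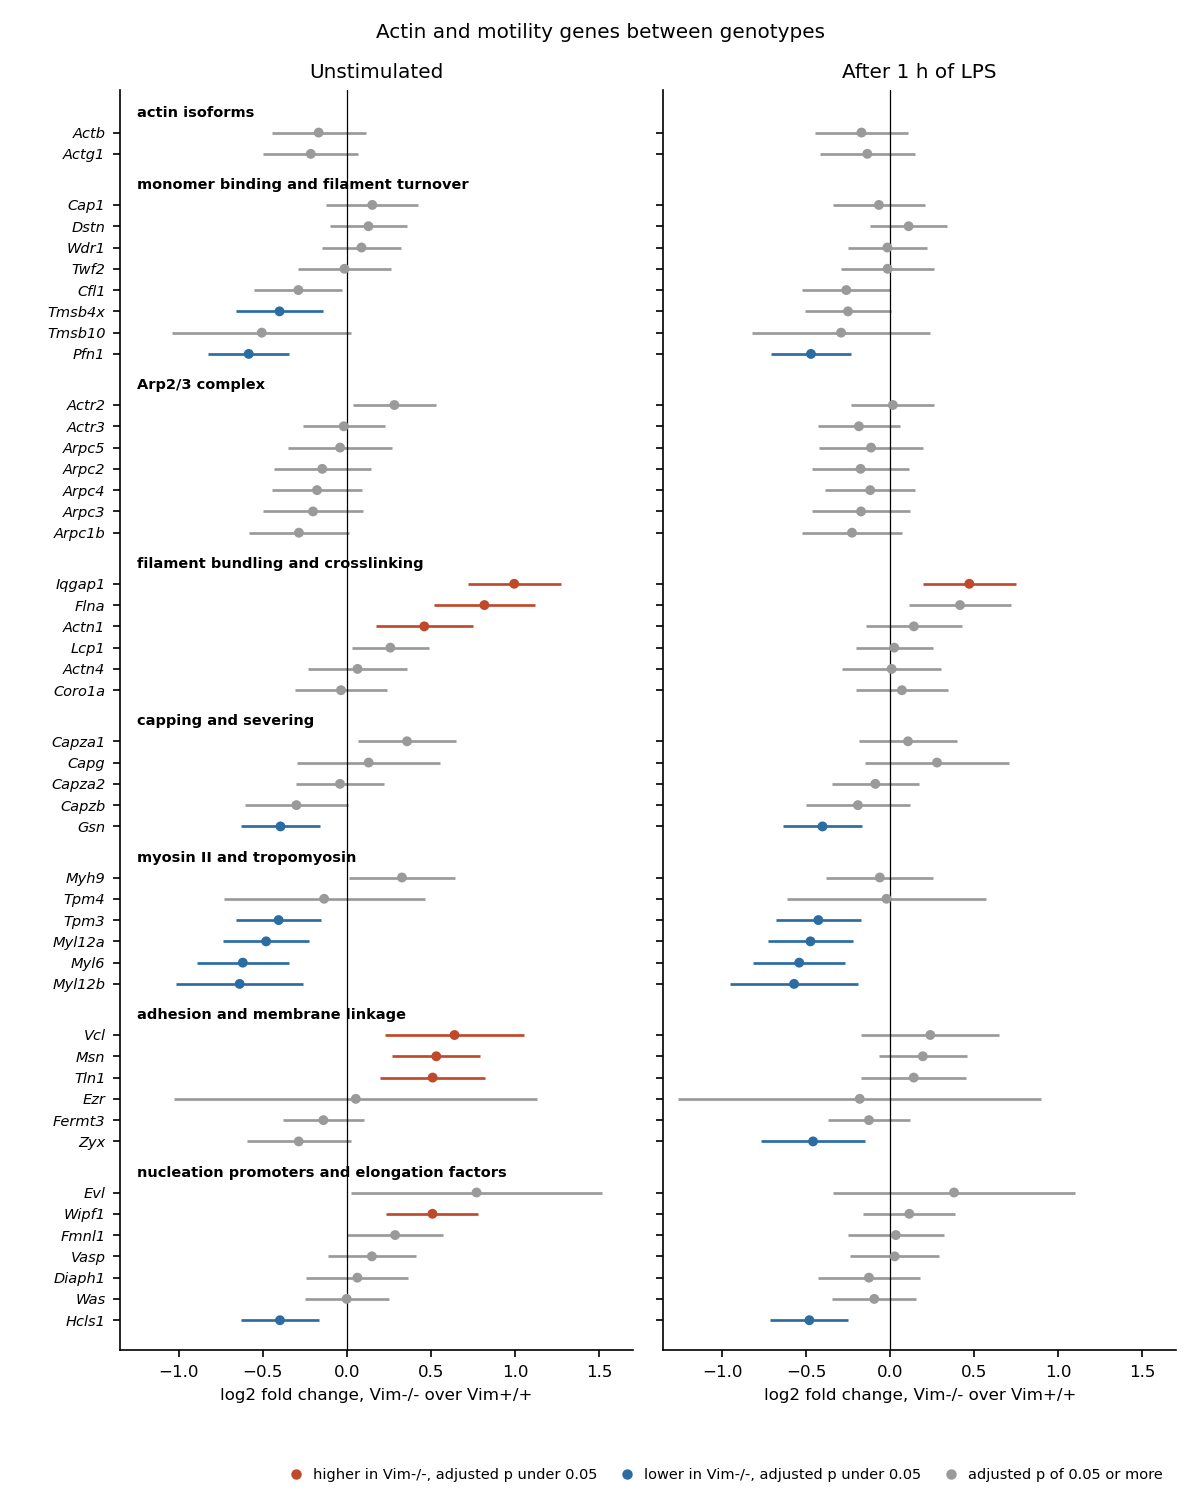
Log2 fold change of each of the 47 genes in *Vim*-/- over *Vim*+/+ neutrophils, unstimulated on the left and after 1 h of LPS on the right, with points for the deposited values, lines for 95% confidence intervals from the deposited standard errors, and genes grouped by role. Unstimulated, 7 genes are coloured as higher and 8 as lower; after LPS, 1 and 8.

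Crosslinking and bundling proteins held the largest positive differences. *Iqgap1*, a scaffold that binds and crosslinks filaments (chromosome 7 of GRCm38, 80711583 to 80815549), was 1.99-fold higher in unstimulated *Vim*-/- neutrophils (95% confidence interval 1.64 to 2.42, adjusted p = 2.35e-10). Filamin A, which crosslinks filaments into a mesh and binds integrin tails, followed with *Flna* (X chromosome) at 1.76-fold (1.43 to 2.17, adjusted p = 4.23e-06). The alpha-actinin gene *Actn1* was 1.38-fold higher (1.13 to 1.68, adjusted p = 0.0139), whereas its paralog *Actn4* had a log2 fold change of 0.06 (95% confidence interval -0.23 to 0.36, adjusted p = 0.825). The other genes of this role, the leukocyte plastin *Lcp1* at 0.26 and coronin 1A (*Coro1a*) at -0.04, did not pass. Of 6 crosslinking genes 3 were thus higher and 0 lower, where 16.6% and 9.63% of abundant genes (baseMean of 1000 or more) were, and with length centring, described further on, *Iqgap1* alone of the 3 was still called.

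Genes that tie filaments to adhesions and to the membrane included 3 higher members of 6, against 16.6% of abundant genes, of which 1 or 0 was still called with length centring on the longest or the principal transcript. Vinculin, which strengthens integrin adhesions under load, was 1.56-fold higher (*Vcl*, 1.17 to 2.07, adjusted p = 0.0174). Moesin, the main ERM protein of leukocytes, was 1.45-fold higher (*Msn*, 1.21 to 1.73, adjusted p = 0.00101), and talin, which activates integrins, 1.42-fold higher (*Tln1*, 1.15 to 1.77, adjusted p = 0.0119). Kindlin-3 (*Fermt3*), the partner of talin in integrin activation of blood cells, stood at -0.14 and zyxin (*Zyx*) at -0.29, and neither passed. Ezrin could not be placed: *Ezr* had a log2 fold change of 0.05 with a standard error of 0.55, the largest among the members, whose median was 0.14.

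Of the 6 myosin II and tropomyosin genes 4 were lower, against 9.63% of abundant genes. The regulatory light chains of non-muscle myosin II are encoded by the neighbouring genes *Myl12a* and *Myl12b* on chromosome 17 (70993793 to 71002533 and 70973963 to 70990516 of GRCm38), and in unstimulated *Vim*-/- cells the first was 1.40-fold lower (1.17 to 1.66, adjusted p = 0.00265) and the second 1.56-fold lower (1.20 to 2.02, adjusted p = 0.00874). The essential light chain *Myl6* was 1.54-fold lower (1.27 to 1.86, adjusted p = 0.000216), and *Tpm3*, a tropomyosin that lies along the filament and governs myosin access, 1.33-fold lower (1.11 to 1.58, adjusted p = 0.0129). The heavy chain gene of the same motor, *Myh9*, stood at 0.33 (standard error 0.16, adjusted p = 0.151) and did not pass. Its value was -0.06 after LPS and, unstimulated, -0.09 and -0.10 with length centring on the longest and the principal transcript. *Tpm4* stood at -0.14 with a standard error of 0.30. Shared sequence limits some of these values, because 45.7% of the 100-base windows of *Tpm3* transcripts also occur in *Tpm3-rs7*, 26.5% of those of *Myl6* in other genes and 24.5% of those of *Myl12a* in *Myl12b*, and how the authors assigned such reads is not given in the sources used here.

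Chromosome 17 as a whole was lower in *Vim*-/- cells. Its 670 genes in the tables had a median log2 fold change of -0.34 unstimulated and -0.28 after LPS, against medians of 0.10 and 0.05 over the 11629 genes placed elsewhere, and the median of every other chromosome was positive in both comparisons. Within 5 Mb of *Myl12a* and *Myl12b*, 20 of 32 other genes had a negative fold change, with a median of -0.23 unstimulated. With fold changes centred on the genes of the same chromosome, *Myl12a* stood at -0.14 and *Myl12b* at -0.30 and neither passed in either comparison, while *Myl6* and *Tpm3*, on chromosomes 10 and 3, did in both. In that setting 3 members were higher and 7 lower unstimulated (background 9.84% and 7.67%), and 1 was higher and 6 were lower after LPS (background 5.94% and 4.55%).

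Monomer-binding proteins were lower where they passed, with 2 of 8 against 9.63% of abundant genes. Length centring on the longest transcript left 1 of them (*Pfn1*) and on the principal transcript 0. *Pfn1* was 1.50-fold lower (1.27 to 1.77, adjusted p = 4.90e-05) and *Tmsb4x* 1.32-fold lower (1.10 to 1.58, adjusted p = 0.0177). Thymosin beta 10, the paralog of thymosin beta 4, had the same sign at -0.51 but a standard error of 0.27 (*Tmsb10*, adjusted p = 0.193). Cofilin, which severs aged filaments, stood at -0.29 (*Cfl1*, adjusted p = 0.119), and its close relative destrin at 0.13 (*Dstn*, adjusted p = 0.50). The cofilin cofactors *Wdr1* and *Cap1* (0.09 and 0.15) and twinfilin (*Twf2*, -0.01) did not pass.

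Neither actin gene nor any subunit of the Arp2/3 complex passed. *Actb* stood at -0.17 (95% confidence interval -0.45 to 0.11, adjusted p = 0.457) and *Actg1* at -0.21 (-0.50 to 0.07, adjusted p = 0.325). The 7 Arp2/3 subunits lay between -0.29 for *Arpc1b* and 0.28 for *Actr2*, with a median of -0.15 and a smallest adjusted p of 0.104, and the 2 actin-related subunits that template the branch, *Actr2* and *Actr3*, stood at 0.28 and -0.02. The others were *Arpc2* at -0.15, *Arpc3* at -0.20, *Arpc4* at -0.18 and *Arpc5* at -0.04. *Actr3*, *Actg1* and *Capza1* share 22.4%, 51.1% and 60.9% of their windows with other genes. Among proteins that activate or extend the network, *Wipf1*, which binds and stabilizes WASP, was 1.42-fold higher (1.18 to 1.72, adjusted p = 0.00315), although its log2 value of 0.51 came to 0.28 (adjusted p = 0.194) and 0.23 (adjusted p = 0.306) with length centring on the longest and the principal transcript, while *Was* itself stood at -0.00 (-0.25 to 0.25, adjusted p = 0.996). *Hcls1*, the blood-cell relative of cortactin that binds Arp2/3 branches, was 1.32-fold lower (1.12 to 1.55, adjusted p = 0.00728). The formins *Diaph1* and *Fmnl1* (0.06 and 0.29) and the Ena/VASP proteins *Vasp* and *Evl* (0.15 and 0.77, with a standard error of 0.38 for the last) did not pass. Of the capping and severing genes, gelsolin was 1.32-fold lower (*Gsn*, 1.12 to 1.55, adjusted p = 0.00943), and the 3 capping protein subunits and *Capg* lay between -0.30 for *Capzb* and 0.36 for *Capza1* (adjusted p = 0.0761), with *Capza2* at -0.04 and *Capg* at 0.13.

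After LPS the same comparison gave 1 member higher (background 6.68% of all genes, 7.42% of those with a baseMean of at least 1000) and 8 lower (background 4.35% and 6.30%). *Iqgap1* was 1.39-fold higher in *Vim*-/- cells (1.14 to 1.68, adjusted p = 0.0131). *Flna* was 1.33-fold higher (1.08 to 1.64) with an adjusted p of 0.0593 and did not pass. The lower members were *Hcls1* (1.40-fold, adjusted p = 0.00125), *Myl6* (1.46-fold, 0.00249), *Pfn1* (1.39-fold, 0.00257), *Myl12a* (1.39-fold, 0.00492), *Gsn* (1.32-fold, 0.0124), *Tpm3* (1.35-fold, 0.0126), *Myl12b* (1.49-fold, 0.0325) and *Zyx*, a protein of adhesions and stress fibres (1.38-fold, 0.0360). Without adjustment 2 were higher and 8 lower at p under 0.05. Counted over both comparisons, which use different libraries in 1 model, 8 of the 47 members passed in both, 7 only unstimulated, 1 only after LPS and 31 in neither. For all genes whose baseMean was 1000 or more the corresponding shares were 10.9%, 15.3%, 2.81% and 71.0%, and over all genes 7.80%, 11.0%, 3.23% and 78.0%. The median over the members was -0.10, against 0.03 over all genes, and none passed an absolute log2 fold change over 1 as well (background 5.32%). At the robust spread of the Wald statistics 0 members were higher (background 1.46%) and 0 lower (background 0.756%).

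The direction of the unstimulated differences went with transcript length. The 7 higher members had longest transcripts of 3734 to 8456 bases in GENCODE, and the 8 lower ones of 864 to 3040. Over 12048 genes with a length the fold change rose with it, with a Spearman rho of 0.29 across genes unstimulated and 0.13 after LPS, and unstimulated the median of the 20 length bins ran from -0.33 for the shortest to 0.51 for the longest. Among genes with a baseMean of at least 1000 rho was 0.50 and 0.24, and across the 47 members 0.61 and 0.42. These are descriptions across genes of the same libraries, which are not independent replicates. Neither RNA quality nor read coverage along transcripts can be read from the tables, and the part of the length trend in the results was not tested.

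**Figure D3:**
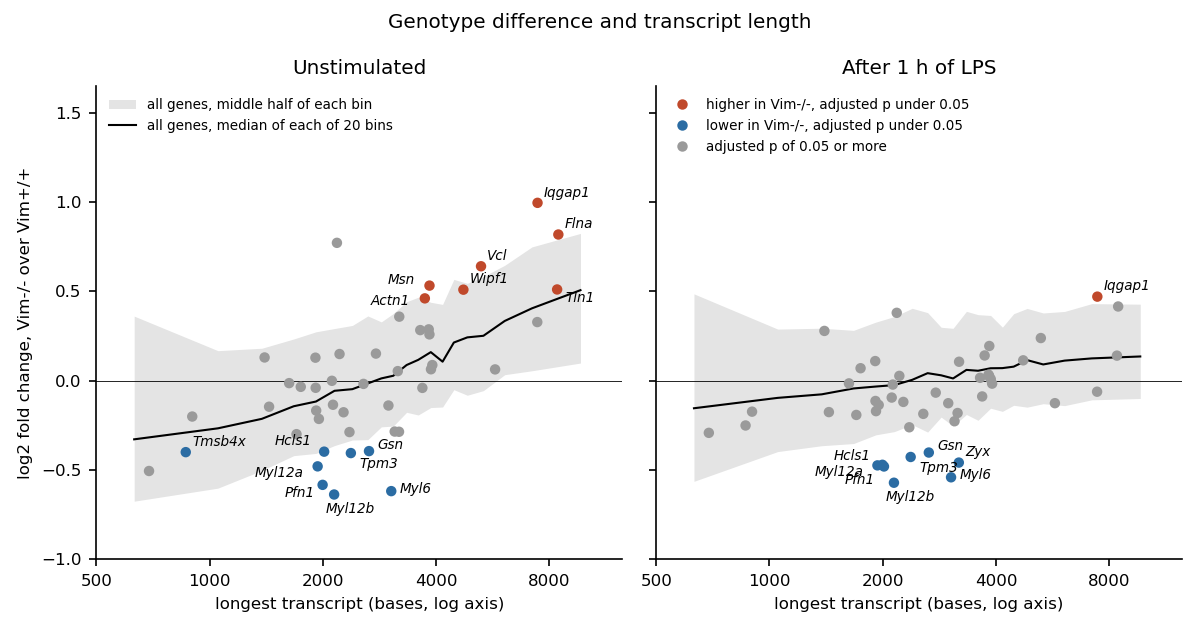
Log2 fold change in *Vim*-/- over *Vim*+/+ neutrophils against the length of the longest transcript (log axis), unstimulated on the left and after LPS on the right, with points for the 47 genes, the line and band for the median and the middle range of all genes in 20 length bins. Unstimulated, the line climbs from -0.33 to 0.51, the higher genes all lie at 3734 bases or more, and *Myl6*, *Myl12b* and *Pfn1* lie well under the line.

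With the fold changes centred on genes of similar length, some calls ended and others did not. Taking the longest transcript, 2 members were higher in unstimulated *Vim*-/- cells, *Iqgap1* at 0.58 (adjusted p = 0.000979) and *Msn* at 0.38 (adjusted p = 0.0381), where 7.12% of all genes were. Lower were *Myl6*, *Myl12b*, *Pfn1*, *Gsn*, *Myl12a* and *Tpm3*, 6 members against 6.32% of all genes. *Tln1* fell to 0.05 (adjusted p = 0.889) and *Flna* to 0.36 (adjusted p = 0.108), while *Tmsb4x*, with a longest transcript of 864 bases, came to -0.11 (adjusted p = 0.668). After LPS 0 members were higher (background 5.77%) and the 8 lower ones all passed (background 4.49%), with *Iqgap1* at 0.34 (adjusted p = 0.103). The choice of transcript mattered for *Myl6* and *Pfn1*, whose principal transcripts of 665 and 861 bases are much shorter than their longest of 3040 and 1997. With principal transcripts, *Iqgap1* was the 1 higher member unstimulated (background 7.29%), and *Gsn*, *Myl12a*, *Myl12b*, *Tpm3* and *Hcls1* were the 5 lower ones (background 6.23%). *Pfn1* then stood at -0.26 (adjusted p = 0.163) and *Myl6* at -0.29 (adjusted p = 0.172). After LPS the counts with principal transcripts were 0 higher (background 5.74%) and 8 lower (background 4.36%). *Iqgap1*, *Gsn* and *Tpm3* passed unstimulated under both lengths and with the chromosome as the reference.

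**Figure D4:**
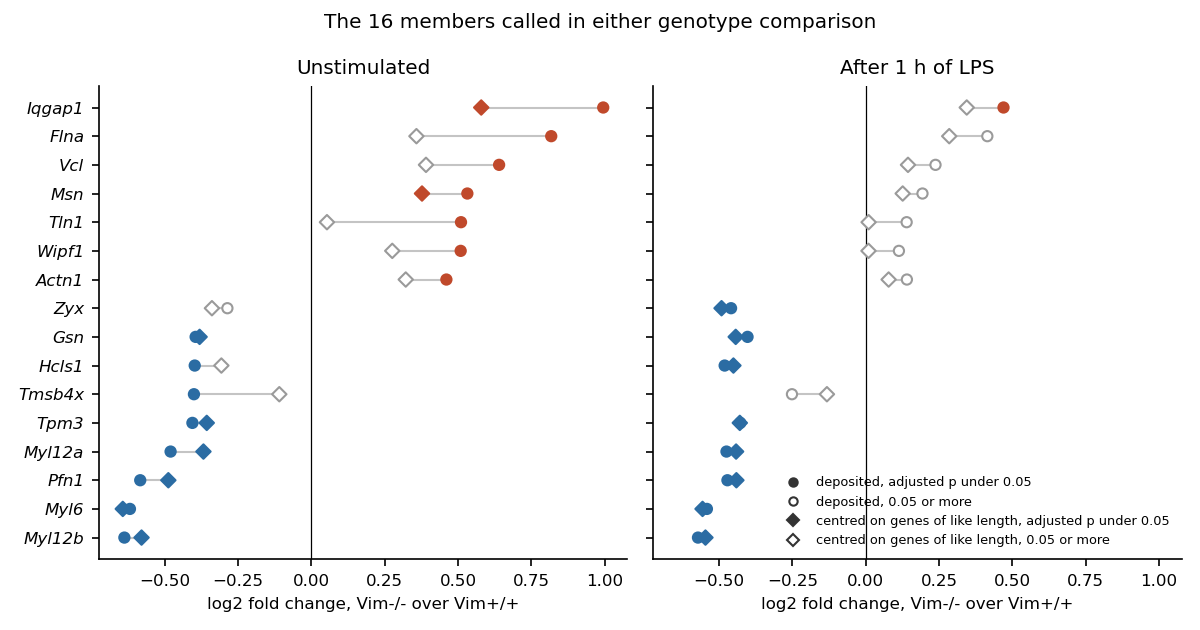
Log2 fold change in *Vim*-/- over *Vim*+/+ neutrophils for the 16 genes called in either genotype comparison, unstimulated on the left and after LPS on the right, with circles for deposited values, diamonds for values centred on genes of like longest transcript, and filled symbols for an adjusted p under 0.05. *Tln1* moves from 0.51 to 0.05 unstimulated, while *Gsn* moves from -0.40 to -0.38.

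The second question was whether 1 h of LPS changed these genes. In the authors' DESeq2 test 0 of the 47 passed in *Vim*+/+ neutrophils, where 2.17% of all genes did, and 0 in *Vim*-/- neutrophils, where 2.21% did. Without adjustment, 7 had p under 0.05 in *Vim*+/+ (5 up and 2 down) and 4 in *Vim*-/- cells (1 up and 3 down). The smallest adjusted p was 0.153 for *Iqgap1* in *Vim*+/+ cells (0.42, standard error 0.15) and 0.109 for *Tpm4* in *Vim*-/- cells (0.82, standard error 0.28). *Tpm4*, a tropomyosin at a low level here, had the largest fitted value in both genotypes, 0.70 in *Vim*+/+ cells (adjusted p = 0.356). The most negative was *Capg*, a capping protein of myeloid cells, at -0.56 in *Vim*+/+ (adjusted p = 0.264) and -0.41 in *Vim*-/- cells (adjusted p = 0.574). Of the 47 log2 fold changes, 44 in *Vim*+/+ and 46 in *Vim*-/- cells were under 0.5 in size. *Actb* stood at -0.15 and -0.16 in the 2 genotypes.

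**Figure D5:**
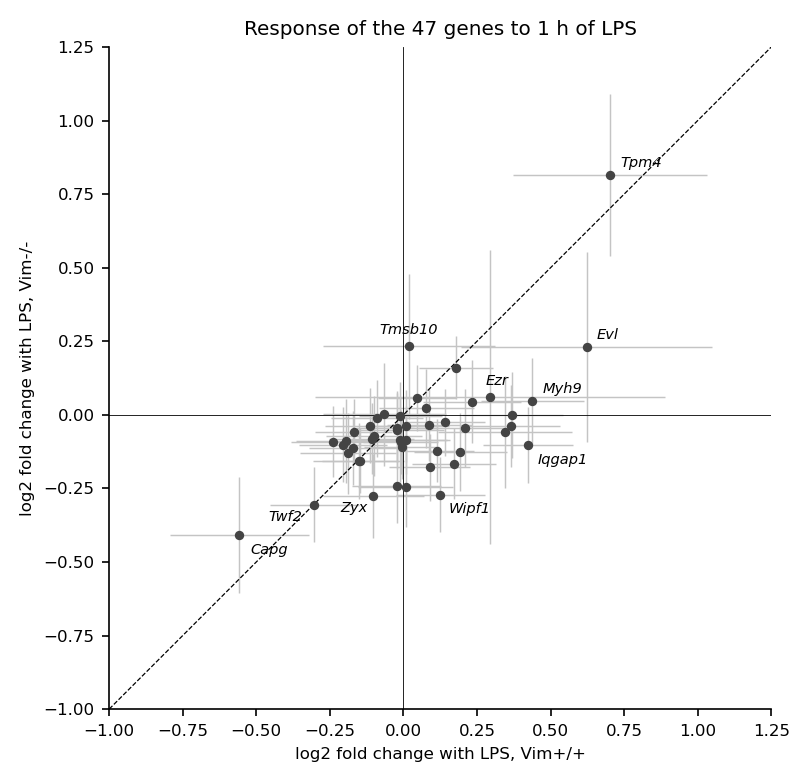
Log2 fold change of each of the 47 genes after 1 h of LPS in *Vim*+/+ (x axis) and *Vim*-/- neutrophils (y axis), with points for the deposited values, bars for 1 standard error and a dashed line where both are equal. *Tpm4* lies at 0.70 and 0.82, *Capg* at -0.56 and -0.41, and *Iqgap1* to the right of the line at 0.42 and -0.10.

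No member passed the test of the difference between the LPS responses (*Vim*-/- minus *Vim*+/+), and over all genes 0.0764% did. Unadjusted, 2 had p under 0.05. *Iqgap1* differed by -0.53 (standard error 0.20, unadjusted p = 0.00856, adjusted p = 0.633), from 0.42 in *Vim*+/+ and -0.10 in *Vim*-/- cells, and *Wipf1* by -0.40 (standard error 0.20, adjusted p = 0.825). The same difference is that of the 2 genotype comparisons, so the fall of *Flna*, *Vcl*, *Tln1*, *Wipf1*, *Msn* and *Actn1* below the threshold after LPS is not shown to be a change: their differences lay between -0.32 and -0.40 with adjusted p of 0.825 to 0.943. The length trend was in this comparison as well, since rho across the 47 members was 0.62 for LPS in *Vim*+/+, -0.02 for LPS in *Vim*-/- and -0.77 for the difference, where it was 0.54, -0.01 and -0.55 across genes with a baseMean of at least 1000 and 0.29, 0.03 and -0.26 across all genes. The unstimulated *Vim*+/+ libraries enter the first and last of these and the unstimulated genotype comparison.

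Many genes of this machinery are controlled by serum response factor (SRF), whose coactivators of the MRTF family are held in the cytoplasm by actin monomers and which binds the CArG box. A CArG box was found between 250 bases before and 50 after the start site in 4 of 44 members with a RefSeq promoter (9.09%) and in 154 of 9778 genes of the tables (1.57%), both strands counted, since the motif reads as a palindrome. The 4 stretches are shown because they hold the match in promoters of genes that moved in different ways, with the box in capitals, on GRCm38.p6 and on the strand of the gene.
*Actg1*, chr11:120348561-120348600, minus strand: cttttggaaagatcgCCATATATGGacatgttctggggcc
*Myl6*, chr10:128493035-128493074, minus strand: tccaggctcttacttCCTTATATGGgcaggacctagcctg
*Vcl*, chr14:20929156-20929195, plus strand: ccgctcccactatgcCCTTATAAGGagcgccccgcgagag
*Arpc4*, chr6:113377863-113377887, plus strand: CCTAATTTGGtgcccaacctgaggt
The genes with these boxes did not move together: *Vcl* was higher and *Myl6* lower in unstimulated *Vim*-/- cells, and *Actg1* (-0.21) and *Arpc4* (-0.18) did not pass. A match is a run of letters in these windows and not a measured binding site.

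Of the SRF axis and its muscle-type targets, 6 of 9 genes were in the tables, 1 higher and 2 lower in unstimulated *Vim*-/- cells, beside 12.6% and 6.15% of all genes. The coactivator *Mkl2* was higher at 1.17 (standard error 0.27, adjusted p = 0.000370), smooth muscle actin *Acta2* lower at -1.29 (standard error 0.22, adjusted p = 1.43e-07) and calponin 2 (*Cnn2*) lower at -0.39 (adjusted p = 0.0184). After LPS *Acta2* and *Cnn2* were lower too, at -1.34 and -0.37, whereas *Mkl2* stood at 0.04 (adjusted p = 0.963). In the test of the difference between LPS responses *Mkl2* stood at -1.13 (standard error 0.38, adjusted p = 0.466), so a change is not shown. No transcript length was matched to *Mkl2*, so its value could not be length centred.

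The regulators upstream of the network were read from lists of other pathway genes. Of 7 genes for the WAVE complex, which switches on Arp2/3 at the leading edge, 3 were higher in unstimulated *Vim*-/- cells and 1 lower, beside 16.6% and 9.63% of abundant genes. *Cyfip2* stood at 0.69 (standard error 0.13, adjusted p = 9.42e-06), *Wasf2* at 0.51 and *Abi1* at 0.37, while the small subunit *Brk1* stood at -0.47 (adjusted p = 0.0339). After LPS these 4 stood at 0.28, 0.08, 0.12 and -0.20 and did not pass. Against genes of similar length, adjusted p was 0.0979 for *Cyfip2*, 0.312 for *Wasf2*, 0.151 for *Abi1* and 0.477 for *Brk1*, so these calls ended.

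Some paralogs of the members had larger differences than any member. Of 30 such genes 21 were in the tables, and 7 were higher and 1 lower in unstimulated *Vim*-/- cells, beside the same 12.6% and 6.15%. *Enah*, the third Ena/VASP gene, stood at 3.93 (standard error 0.30, adjusted p = 3.06e-35) and at 4.56 after LPS (standard error 0.32), at a baseMean of 1004. *Tpm1* stood at 1.26 (standard error 0.25, adjusted p = 1.33e-05) at a baseMean of 944, and *Iqgap2* at 0.80 (adjusted p = 0.000855), and the light chain *Myl6b* at -1.26 (standard error 0.35, adjusted p = 0.00336). *Enah* and *Tpm1* were higher after LPS as well, and both passed unstimulated against genes of similar length (adjusted p = 8.88e-26 and 2.09e-05), as did *Myl6b* (0.0284), but not *Iqgap2* (0.0743).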

How the data were processed

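RNA sequencing of 10 libraries was analysed from the 4 comparison tables the authors deposited. Per the labels and the study's methods, the authors used cutadapt 4.4 for trimming and STAR 2.7.10b for alignment to mm10 and counting, and fitted DESeq2 1.26.0 with 4 covariates of unwanted variation, which left 2 residual degrees of freedom. The deposited signal is baseMean, the authors' mean of normalized counts. The deposited log2 fold changes and standard errors are those of the authors' fit, the Wald statistic is a score the authors deposited, and the deposited p-values, raw and adjusted, are the authors' own. Gene annotation and strand of counting are not given in the sources used here. Depth per library is unknown.

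Genotype signs were turned to *Vim*-/- over *Vim*+/+. Calls required an adjusted p under 0.05, and 254 genes without one in each genotype comparison, and 762 for LPS in *Vim*-/-, were never called. The LPS responses were subtracted, with the root of the summed squared standard errors and tested two-sided against the normal distribution with Benjamini-Hochberg adjustment over 13091 genes. Intervals are 95% and normal. Lengths came from GENCODE M21 (12048 genes matched), positions and promoters from RefSeq on GRCm38.p6. Length centring subtracted a line through the medians of 20 bins. Python 3.11.15, numpy 2.4.6, scipy 1.17.1, pandas 2.3.3 and matplotlib 3.10.9 were used. The test of the difference and length centring were tried on data simulated from the deposited standard errors. Such data have a Wald spread of 1 where nothing changes, against 1.83 in the unstimulated genotype comparison. They therefore do not show how length centring performs there. Alternatives were a baseMean of at least 100, a fold limit, median centring, scaled Wald statistics, length centring and adjustment without filtering; principal transcripts and chromosome centring were added after the data were seen.

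Members and lists were chosen with earlier results of these data known. All members are named; from each pathway list up to 3 genes a direction with the largest Wald statistic among those called at a baseMean of at least 100; from marker lists the gene with the highest baseMean and up to 6 of those called. The labels call the libraries of a group biological replicates and do not say whether they came from separate clones, so the p-values measure the spread left between these libraries after the covariates, which may be technical. The results of some further pathway genes are not reported here.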

Additional observations from a re-analysis of the deposited data

How the results depend on the processing

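No paired analysis was possible because the deposited tables give no value for a single library, and for the same reason the planned replicate block and leaving out each library in turn were not run, so that no statement can be made on how far 1 library decides a value. Members higher in unstimulated *Vim*-/- cells numbered 7 as deposited, 0 with an absolute log2 fold change over 1, 1 with scaled Wald statistics, 2 and 1 with length centring on the longest and the principal transcript, and 3 with chromosome centring. Members lower numbered 8, with 0, 0, 6 and 5 and 7 under these settings. After LPS, 1 was higher, with 0 under the fold limit, scaled Wald statistics and both length centrings, and 8 were lower, with 0 under the fold limit and 0 with scaled Wald statistics. The cause of these losses was not tested, beyond what each setting itself subtracts or requires. *Iqgap1* unstimulated kept an adjusted p under 0.05 in all 7 settings without a fold limit (0.0209 at most), and no other called member did in either comparison. With median centring *Cfl1* also passed as lower, making 9. The counts of 0 for LPS in each genotype and for the difference of the responses stayed at 0 in every setting run. The 2 medians moved by less than the median standard error of the members. Wald statistics had a robust spread of 1.83 unstimulated and 1.50 after LPS, where 1 follows from exact standard errors and no change.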

Other observations

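Motor and septin families outside the lists were looked at after the values of the tables had been seen, and no support is drawn from them. Of 30 kinesin heavy chain genes, which move cargo and spindle fibres along microtubules, 17 were higher and 0 lower in unstimulated *Vim*-/- neutrophils, with a median log2 fold change of 0.69, where 12.6% of all genes and 16.6% of those with a baseMean of at least 1000 were higher, and 10 were higher after LPS, with a median of 0.57, where 6.68% of all genes and 7.42% of the abundant ones were. The mitotic kinesins *Kif11* (0.83, standard error 0.27), *Kif15* (0.96, standard error 0.21) and *Kif23* (0.91, standard error 0.20) were among them, and so were the cargo kinesins *Kif1b* (1.14, standard error 0.20) and *Kif5b* (0.66, standard error 0.18). Longest transcripts of the called kinesins ran from 2842 bases for *Kif2c* (0.58) to 10233 for *Kif1b*, with 3398 for *Kif23*, and the median of all genes in the length bins that hold *Kif2c*, *Kif23* and *Kif1b* was 0.01, 0.09 and 0.51. The proliferation markers *Mki67* (1.20) and *Top2a* (0.99) were higher in the same comparison. The part of length and of proliferation in the kinesin values was not tested. Of 16 unconventional myosin genes 5 were higher and 1 lower unstimulated, beside 12.6% and 6.15% of all genes. *Myo1d*, a short-tailed membrane motor, stood at 2.78 (standard error 0.42, baseMean 1793) and at 2.64 after LPS, and *Myo5a*, a vesicle motor on actin, at 0.65 (standard error 0.19). *Myo18b* (6.40, standard error 1.24, baseMean 99.1) was higher and *Myo1e* (-6.91, standard error 1.76, baseMean 38.3) lower, with standard errors so wide that the fitted values give no size. Of 10 septin genes 2 were higher and 1 lower, near those shares. *Sept5* stood at 10.97 (standard error 0.92, baseMean 1127) and at 8.40 after LPS (standard error 0.92), *Sept8* at 1.60 (standard error 0.46), and *Sept1* at -0.60 (standard error 0.17) and -0.57 after LPS. The LPS response of *Sept5* had a standard error of 1.39 in *Vim*+/+ and 0.37 in *Vim*-/- cells, so the size of its genotype difference is uncertain.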
